A study of Mus musculus with 84 samples.

Results

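Oxidative phosphorylation subunits encoded in the nuclear genome were followed in the RNA of sorted neuronal nuclei after a psychedelic drug. The members were protein-coding genes outside the mitochondrial chromosome whose symbols begin with the names of complex I subunits (Ndufa, Ndufb, Ndufc, Ndufs, Ndufv), complex II subunits (Sdha to Sdhd), complex III subunits (Uqcr, Cyc1), cytochrome c oxidase subunits (Cox4i, Cox5 to Cox8) or ATP synthase subunits (Atp5), without the Ndufaf assembly factors and without names ending in -ps. By this rule 92 of the 55401 gene IDs of the count tables were members: 39 of complex I, 8 of complex II, 9 of complex III, 18 of complex IV and 18 of ATP synthase (complex V). The prefix Sdha also takes in 4 assembly factors of complex II (Sdhaf1 to Sdhaf4), which are members by the rule although they are not subunits. Ndufa4 is kept under complex I by its name, and is now regarded as a subunit associated with complex IV.

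The nuclei came from the frontal cortex of 129S6/SvEvTac mice aged 12 weeks and had been sorted for NeuN, a protein of neuronal nuclei. DOI (2,5-dimethoxy-4-iodoamphetamine) is an agonist of the serotonin 2A receptor. The 4 groups were vehicle-injected mice (VEH) and mice taken 24 h, 48 h or 7 d after a DOI injection. Each group had 4 mice with 2 libraries each, whose counts were summed, so the mouse is the replicate (n = 4). The mice are not labelled with any genotype or further agent, and the labels give no dose. Nothing in the labels says that the mice of a group came from separate cages or days. A mean is given ± SD over the 4 mice, and a log2 fold change ± SE, throughout. The H3K27ac samples of the study were not analysed here.

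In the inner mitochondrial membrane, complexes I and II take electrons from NADH and succinate, complex III passes them from ubiquinol to cytochrome c, and complex IV passes them to oxygen. Complexes I, III and IV pump protons, and ATP synthase uses the proton gradient to make ATP. The nuclear genome encodes all of complex II and most subunits of the others, while the mitochondrial genome encodes a few core subunits of complexes I, III, IV and V. Neurons rely on this pathway for ion pumping and synaptic transmission, and their subunit genes are known targets of the transcription factors NRF1, GABPA and YY1 and of the coactivators of the PGC-1 family.

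RNA of nuclei was measured, so the values describe nuclear transcripts and not the proteins or the cytoplasmic mRNA. Totals per mouse were 9151680 to 11517452 counts in VEH, 6441396 to 8090559 after 24 h, 5834248 to 7344355 after 48 h and 6972577 to 12354785 after 7 d, so the vehicle mice were sequenced more deeply than every mouse of the 24 h and 48 h groups. The share of counts on an 18S ribosomal RNA pseudogene feature was at most 0.0101% in the vehicle mice, 0.328 to 1.57% at 24 h and 0.523 to 1.66% at 48 h. At 7 d it was 0.00834%, 0.633%, 0.00607% and 0.474% in mice 1 to 4. This share separated the 24 h and 48 h mice from vehicle and split the 7 d mice, and its part in the results was not tested. The 3 mice labelled 24 h mouse 1, 48 h mouse 2 and 7 d mouse 2 carried the mouse number 6 in their file headers, and the labels' numbers were used.

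Markers of the sorted cell type were present: Rbfox3, the gene of NeuN, had a mean of 56.4 CPM in VEH and rose at 24 h (98.8 CPM) and 48 h (99.4 CPM). The summed CPM (counts scaled to library size, per 1000000, with TMM factors) of 6 neuron markers was 5985 to 6310 in VEH, 4034 to 5931 after 24 h, 3669 to 5847 after 48 h and 4515 to 6244 after 7 d, so every 24 h and 48 h mouse lay below every vehicle mouse. Snap25, the most abundant of them, made up most of this difference, with means of 4101 CPM in VEH, 2738 at 24 h and 2669 at 48 h. Snap25 and Gad1 fell at both times and Gad2 at 24 h, while Syt1 was at 0.42 and 0.56 on the log2 scale and did not pass. Slc17a7 was at -0.80 and -0.77 and did not pass either (edgeR adjusted p = 0.0616 and 0.0594). Its 24 h and 48 h mice lay below all vehicle mice, with means of 142 CPM in VEH, 81.5 at 24 h and 82.7 at 48 h. The sums of 6 oligodendrocyte markers (164 to 364 in VEH, 160.0 to 236 at 24 h, 183 to 242 at 48 h, 203 to 373 at 7 d) and of 6 microglia markers (69.6 to 108, 42.7 to 84.7, 46.0 to 74.2 and 51.8 to 123 CPM in the same order) overlapped between groups, and 1 oligodendrocyte marker fell at each of 24 h and 48 h while no microglia marker passed the test. The sum of 6 astrocyte markers was 622 to 689.6 in VEH, 704 to 1099 after 24 h, 604 to 1049 after 48 h and 440 to 713 after 7 d, so the 24 h mice lay above vehicle without overlap. This sum was mostly Slc1a2, with means of 501 CPM in VEH and 704 at 24 h. Slc1a2 and Aqp4 had log2 fold changes of 0.49 and 1.01 at 24 h and Slc1a3, Aldh1l1 and Gja1 of -0.27, -0.38 and -0.55, and 0 of 5 tested markers passed the test. The sum of 4 markers of oligodendrocyte precursors was 13.5 to 34.7 in VEH, 15.1 to 20.1 after 24 h, 13.9 to 21.7 after 48 h and 17.4 to 30.1 after 7 d; 1 rose at 24 h, and 1 rose and 1 fell at 48 h. The sum of 5 endothelial markers was 0.973 to 1.51 in VEH, 2.41 to 8.22 after 24 h, 1.01 to 3.85 after 48 h and 0.979 to 2.91 after 7 d, so the 24 h mice lay above vehicle without overlap, and Cldn5 was at 0 counts in VEH. Only Tek had enough counts to be tested, and it did not pass (edgeR adjusted p = 0.134 at 24 h and 0.117 at 48 h). The others had 3 to 49 counts each over all 24 h mice. The sum of 8 markers of striatal neurons was 244 to 416 in VEH, 169 to 287 after 24 h, 283 to 548 after 48 h and 364 to 1721 after 7 d, with 2 of 7 tested lower at 24 h and 1 higher at 48 h. Over all genes tested 13.8% rose and 10.4% fell at 24 h, and 16.8% rose and 13.3% fell at 48 h. The part of these marker differences in the results below was not tested, and in bulk nuclei fewer cells of a type and less RNA per cell cannot be told apart.

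The proximal promoters of the members were searched for motifs of the factors named above, and a few are shown here before the values. RefSeq windows (GRCm38.p6) of 250 bases before to 50 after the start were given for 73 of the 91 member symbols. They were searched on both strands for CGCATGCG (the NRF1 core), CCGGAAGT (ETS factors such as GABPA) and AAGATGGC (YY1). The looser form of the NRF1 core, CGCANGCG, with any base as N, includes the first. Each stretch below runs 5′ to 3′ on the gene's strand and capitals mark the matches. The first 3 were picked because they have a match and belong to members called at 24 h and 48 h, and Uqcr11, a small subunit of complex III, is shown as a member with both an NRF1 core and an ETS motif.
Cox8a: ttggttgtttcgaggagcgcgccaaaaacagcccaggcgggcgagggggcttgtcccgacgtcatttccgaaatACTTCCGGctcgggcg
Sdha: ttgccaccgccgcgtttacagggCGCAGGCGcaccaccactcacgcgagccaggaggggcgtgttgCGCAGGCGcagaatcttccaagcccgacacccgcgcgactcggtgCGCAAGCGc
Sdhd: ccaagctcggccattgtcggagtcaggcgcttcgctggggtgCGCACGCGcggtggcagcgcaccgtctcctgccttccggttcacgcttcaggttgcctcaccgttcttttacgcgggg
Uqcr11: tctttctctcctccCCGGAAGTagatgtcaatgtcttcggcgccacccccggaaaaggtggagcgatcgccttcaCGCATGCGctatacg

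The Cox8a stretch is chr19:7217607-7217696, Sdha is chr13:74350241-74350360, Sdhd is chr9:50603850-50603969 and Uqcr11 is chr10:80406812-80406901, all on the minus strand. In Cox8a an ETS motif on the other strand spans the start, and a further one lies at base 32 after the start, outside the stretch. In Sdha the looser NRF1 form occurs 3 times, and in Sdhd once. Among members with a window, the NRF1 core was in 9 of 73 (12.3%, 95% Wilson interval 6.62 to 21.8%), against 2.77% of 17492 protein-coding genes and 2.07% of all 27025 genes with a window. The looser NRF1 form was in 27 members (37.0%), against 12.4% of protein-coding genes and 9.22% of all genes. YY1 was in 10 members (13.7%, against 3.57% and 3.19%) and the ETS motif in 5 (6.85%, against 5.69% and 4.31%). Of the 8 members called at 24 h or 48 h that had a window, 0 held the NRF1 core, 2 the looser form, 1 ETS and 1 YY1. These are matches of letters in a window and were not tested as binding sites.

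In vehicle neurons the members were expressed at high levels with 1 dominant isoform in most families. Of the 92 members, 83 passed edgeR's filter on low counts, among 17941 genes tested. Their level per length (CPM per kilobase of exon, vehicle mean) had a median of 66.0, from 0.899 for the assembly factor Sdhaf1 to 309 for Atp5b. Exons of Sdhaf1 overlap another gene over 69.6% of their length, and the level was divided by the full exonic length. Atp5b, the catalytic beta subunit of ATP synthase, stood at 309 ± 80.9 (SD, n = 4), followed by Cox8a at 259 ± 57.9 and Cox6a1 at 240.5 ± 39.0 CPM per kb. The alpha subunit Atp5a1 came next at 204 ± 40.5, and each of these 4 overlapped with its neighbour in the order. Median levels were 92.1 for complex IV, 70.5 for complex III, 65.0 for complex I, 52.4 for complex V and 21.1 for complex II, whose median counts the assembly factors. Within complex II the membrane anchor Sdhd (137 ± 25.4), the flavoprotein Sdha (115 ± 16.1) and the iron-sulfur protein Sdhb (102 ± 21.7) had similar levels per kb, while the second anchor Sdhc had 3.31 ± 0.93.

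**Figure D1:**
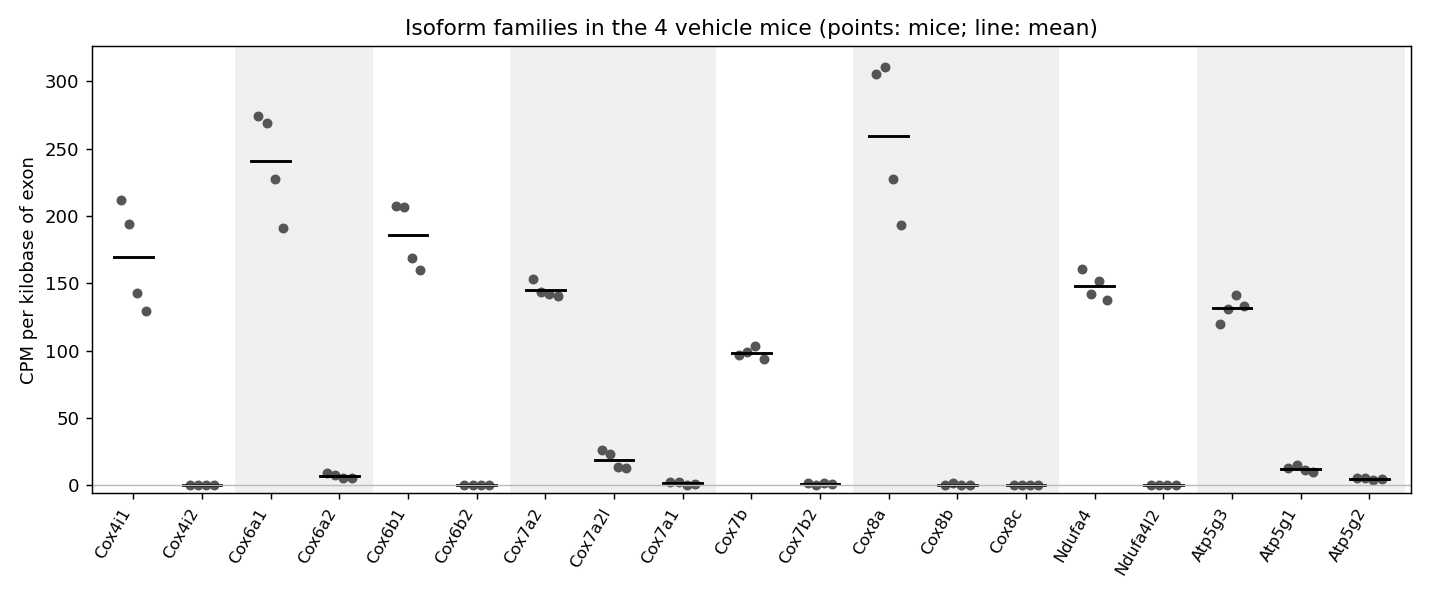
Level of each isoform of 8 subunit families in the 4 vehicle mice, as CPM per kilobase of exon on the y axis (points: mice, line: mean). Cox8a, Cox6a1, Cox6b1, Cox4i1, Cox7a2, Cox7b, Ndufa4 and Atp5g3 are the highest of their families, while Cox4i2, Cox8c and Ndufa4l2 are at 0.

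The isoforms known from heart, skeletal muscle, lung or testis were low beside the common form of the same subunit, and several had no more than a few counts. A count of 3, the limit that a count of 0 allows, equalled 0.254 to 0.502 CPM depending on the mouse, for counting error only. Cox4i1, the common form of subunit 4, had 169 ± 39.8 CPM per kb, while Cox4i2, the lung form, had 3 counts in all 16 mice together. Cox8a, the common form of subunit 8, contrasted with 22 counts of the muscle form Cox8b and 0 of the testis form Cox8c over all mice. Cox6a1 had 240.5 ± 39.0 CPM per kb against 6.65 ± 1.66 for the heart and muscle form Cox6a2, which was above the floor and passed the filter. Cox6b1 (186 ± 24.6 CPM per kb) likewise exceeded Cox6b2, a testis form with 20 counts in all. Cox7a2 had 145 ± 5.54 CPM per kb, the supercomplex factor Cox7a2l 18.8 ± 6.85, and the muscle form Cox7a1 1.38 ± 1.08.

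Ndufa4 had 148 ± 10.4 CPM per kb and its hypoxia-associated relative Ndufa4l2 0 counts in 16 mice. The 3 genes of ATP synthase subunit c encode the same mature protein and differ in their import signals. Among them Atp5g3 had 131 ± 8.71 CPM per kb, Atp5g1 12.1 ± 2.09 and Atp5g2 4.79 ± 0.67, and the ranges of the vehicle mice did not overlap. The 9 members that did not pass the filter were Cox4i2, Cox6b2, Cox7a1, Cox7b2, Cox8b, Cox8c, Ndufa4l2, Ndufb4c and a second gene ID for Atp5o, a readthrough model whose exons all overlap other genes. None had more than 16 counts in any mouse.

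The comparison of 24 h with VEH asks which transcripts differ 1 day after DOI. Complex II transcripts Sdha and Sdhd, the complex I accessory subunit Ndufa10 and Atp5s fell, and the complex IV subunits Cox8a and Cox4i1 rose, all by less than 2-fold, while 77 of 83 tested members did not pass the threshold. With edgeR's quasi-likelihood test and Benjamini-Hochberg adjustment over all genes (threshold 0.05), 2 members (2.41%) were higher and 4 (4.82%) lower. Over all genes tested 13.8% were higher and 10.4% lower, and over protein-coding genes 11.3% and 12.7%, so the share of members called was below the background in both directions. Counts and directions depended on the tool and the scaling. DESeq2 called 4 higher and 6 lower (17.3% and 12.8% of all genes), limma voom 11 and 11 (20.9% and 19.4%), and a model of VEH and 24 h alone 6 and 6 (19.6% and 17.2%). Scaling by total counts alone called 5 higher and 2 lower (16.1% and 7.8% of all genes), as did fitting protein-coding genes alone (14% and 10.6% of those). The share of members called was below that of all genes in these alternatives as well, but not for lower members with no filter on low counts (6.7% of 89 members, 5.8% of all genes). With no filter 36503 genes were tested instead of 17941, and smaller shares of all genes were called in both directions. The median log2 fold change of the members was 0.05, beside 0.03 over all genes and -0.09 over protein-coding genes. Not 1 member passed a 2-fold change, against 24.6% of all genes and 17.3% of protein-coding genes tested. The members were also more abundant than most genes, with a median of 93.9 CPM over all mice against 30.5 for protein-coding genes.

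At 48 h the same comparison called 11 members, again 2 higher (2.41%; 16.8% of all genes and 13.8% of protein-coding genes) and 9 lower (10.8%; 13.3% and 16.1%). All 6 members called at 24 h were called at 48 h with the same sign, and both comparisons share the vehicle mice. The 5 others were Cyc1, Ndufab1, Ndufb2, Ndufa3 and Cox6c, all lower. The median log2 fold change was -0.07 (0.02 over all genes, -0.11 over protein-coding genes), and it was 0.02 when libraries were scaled by total counts alone, which moved the median of all genes to 0.12 (0.14 at 24 h, where the members' median became 0.16). No member passed a 2-fold change. At 48 h limma voom called 8 members higher and 17 lower (22.6% and 20.8% of all genes), a model of VEH and 48 h alone 9 and 16 (21.8% and 19.7%), and DESeq2 3 and 10 (20% and 15.3%). Scaling by total counts alone called 4 and 6 (18.9% and 10.6%), fitting protein-coding genes alone 5 and 6 (16.1% and 14%), and no filter 2 and 10 (8.1% and 7.4%). With no filter the lower members, 11.2% of 89, were above the share of all genes, and in the other alternatives named here both shares were below it. As at 24 h, 36503 genes instead of 17941 were tested with no filter, so the 2 backgrounds cover different genes.

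**Figure D2:**
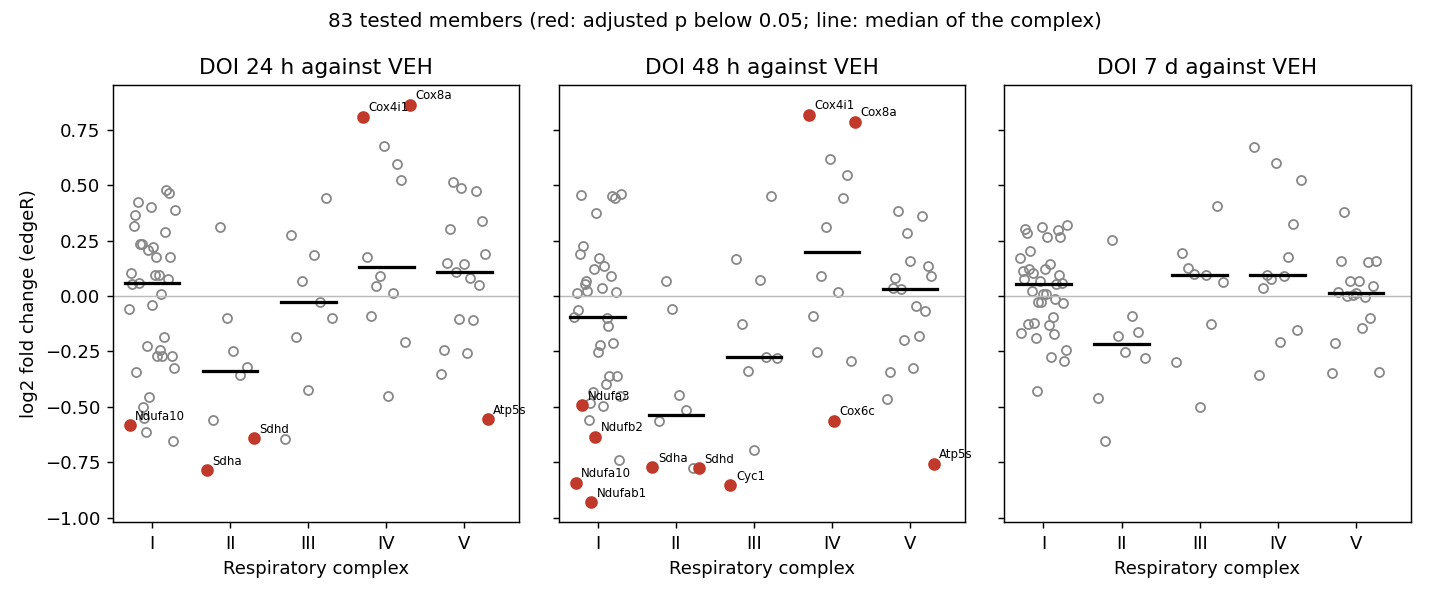
log2 fold change (y axis) of the 83 tested members against vehicle at 24 h, 48 h and 7 d, by respiratory complex (x axis); red points passed an adjusted p of 0.05 and the line is the median of the complex. The median of complex II lay at -0.34, -0.54 and -0.22, below 0 at each time, and the 2 members called higher are both of complex IV.

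Complex II, which oxidises succinate in the citrate cycle, had the lowest median of the 5 complexes at 24 h (-0.34), 48 h (-0.54) and 7 d (-0.22), with 7 of 8 members below 0 at each time. Sdha is the flavoprotein that holds the succinate site (chr13:74322254-74350280, 16 exon blocks). Its CPM was 570.3, 437, 457 and 426 in the vehicle mice, 213, 319, 328 and 237 at 24 h, 311, 219.8, 286 and 291 at 48 h, and 501, 251, 385 and 237 at 7 d. All 8 mice of 24 h and 48 h lay below all 4 vehicle mice, and the 7 d mice ran from the vehicle level down to the 24 h level. The log2 fold change was -0.79 ± 0.23 (SE; edgeR adjusted p = 0.0203) at 24 h and -0.77 ± 0.23 (adjusted p = 0.0183) at 48 h.

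Sdhd, a membrane anchor of the complex that helps form the ubiquinone site (chr9:50596357-50603812), had 181, 207, 149 and 138 CPM in VEH. It had 94.3, 105, 131 and 102 CPM at 24 h, 101, 81.4, 112 and 99.3 at 48 h, and 156, 126, 146 and 127 at 7 d. The 24 h and 48 h mice did not overlap with vehicle, and the 7 d mice overlapped with both vehicle and 24 h. The log2 fold change was -0.64 ± 0.17 (edgeR adjusted p = 0.014) at 24 h and -0.78 ± 0.17 (adjusted p = 0.0045) at 48 h.

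The remaining subunits of complex II did not pass the test. Sdhb, the iron-sulfur protein, had 282, 255, 191 and 182 CPM in VEH and 164, 138, 173 and 162 at 48 h, so the groups did not overlap, with a log2 fold change of -0.51 ± 0.23 (edgeR adjusted p = 0.100). Sdhc had log2 fold changes of -0.32 ± 0.34 and -0.77 ± 0.35 at 24 h and 48 h (adjusted p = 0.512 and 0.0948), at a level of 10.7 CPM in VEH. The assembly factor Sdhaf2, which helps attach the flavin to Sdha, was at 0.31 and 0.07 (adjusted p = 0.186 and 0.79). Summed over the 8 members, complex II had 1003 ± 126 CPM (SD) in VEH, 697 ± 103 at 24 h, 657 ± 79.5 at 48 h and 830 ± 178 at 7 d. The lowest vehicle mouse (882) was above the highest mouse of 24 h (792) and of 48 h (717). Without the 4 assembly factors the means were 880 ± 124, 569 ± 109, 541 ± 62.9 and 706 ± 179 CPM.

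**Figure D3:**
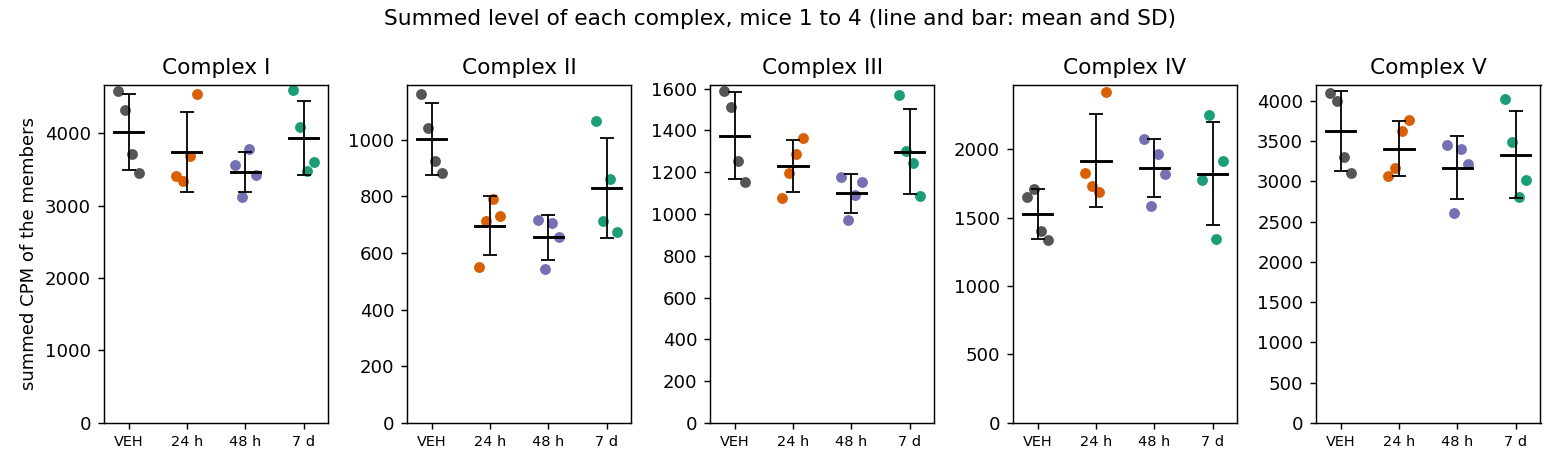
Summed CPM of the members of each complex (y axis, from 0) in mice 1 to 4 of each group, with mean and SD, scaled with TMM factors. On this scale the complex II sums of the 24 h and 48 h mice (at most 792) lie wholly below the vehicle mice (at least 882), and sums of the other complexes overlap with vehicle; scaled by total counts alone, complex IV at 24 h (at least 1703) also lies wholly above vehicle (at most 1644).

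Complex IV, cytochrome c oxidase, had the highest median at 24 h (0.13) and 48 h (0.20), and its members moved in both directions. Cox8a encodes the smallest subunit, embedded in the membrane (chr19:7215153-7217616). Its CPM was 189, 192, 141 and 119.8 in VEH, 263, 275, 273 and 356 at 24 h, 284, 235, 270.1 and 318 at 48 h, and 223, 319.9, 138 and 239.8 at 7 d. The 24 h and 48 h mice lay above all vehicle mice, and 7 d mouse 3 lay within the vehicle range. The log2 fold change was 0.86 ± 0.22 (edgeR adjusted p = 0.0121) at 24 h and 0.79 ± 0.22 (adjusted p = 0.015) at 48 h.

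Cox4i1, the regulatory subunit that binds ATP (chr8:120668222-120674207), had 329, 300.1, 221 and 200.3 CPM in VEH, 288, 493, 414 and 642 at 24 h, 499.9, 335, 522 and 492 at 48 h, and 355, 661, 225 and 429.7 at 7 d. At 24 h mouse 1 lay within the vehicle range, and at 48 h the groups did not overlap. The log2 fold change was 0.81 ± 0.29 (edgeR adjusted p = 0.0486) and 0.82 ± 0.29 (adjusted p = 0.0402). Exons of Cox4i1 overlap Emc8 on the other strand over 9.94% of their length, and the counting did not use strand.

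Cox6c, a small subunit that spans the membrane once (chr15:35925886-35938246), went the other way. It had 275, 363, 283 and 308 CPM in VEH, 315, 185, 184 and 214 at 24 h and 247, 206, 201 and 177 at 48 h. The fall at 48 h was -0.56 ± 0.20 on the log2 scale (edgeR adjusted p = 0.0378), with no overlap between the groups, while 24 h mouse 1 lay within the vehicle range (-0.45 ± 0.20, adjusted p = 0.0968). Cox6b1, which lies on the face of the enzyme where cytochrome c docks, did not overlap with vehicle at either time: it had 147, 146, 119.6 and 113 CPM in VEH, 180.2, 189, 182 and 288 at 24 h, and 236, 173, 215 and 183 at 48 h. It did not pass the test (0.68 ± 0.26, adjusted p = 0.0616; 0.62 ± 0.26, adjusted p = 0.0742). Cox7b was similar, at 0.52 ± 0.22 and 0.55 ± 0.22 (adjusted p = 0.0914 and 0.0696). The summed level of complex IV was 1524 ± 182 CPM in VEH, 1914 ± 339 at 24 h, 1860 ± 212 at 48 h and 1821 ± 375 at 7 d, with overlap between vehicle and every DOI group on this TMM scale. Scaled by total counts alone, the 24 h mice (1703 to 2531) lay above all vehicle mice (1283 to 1644), and the 48 h and 7 d mice overlapped with vehicle.

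**Figure D4:**
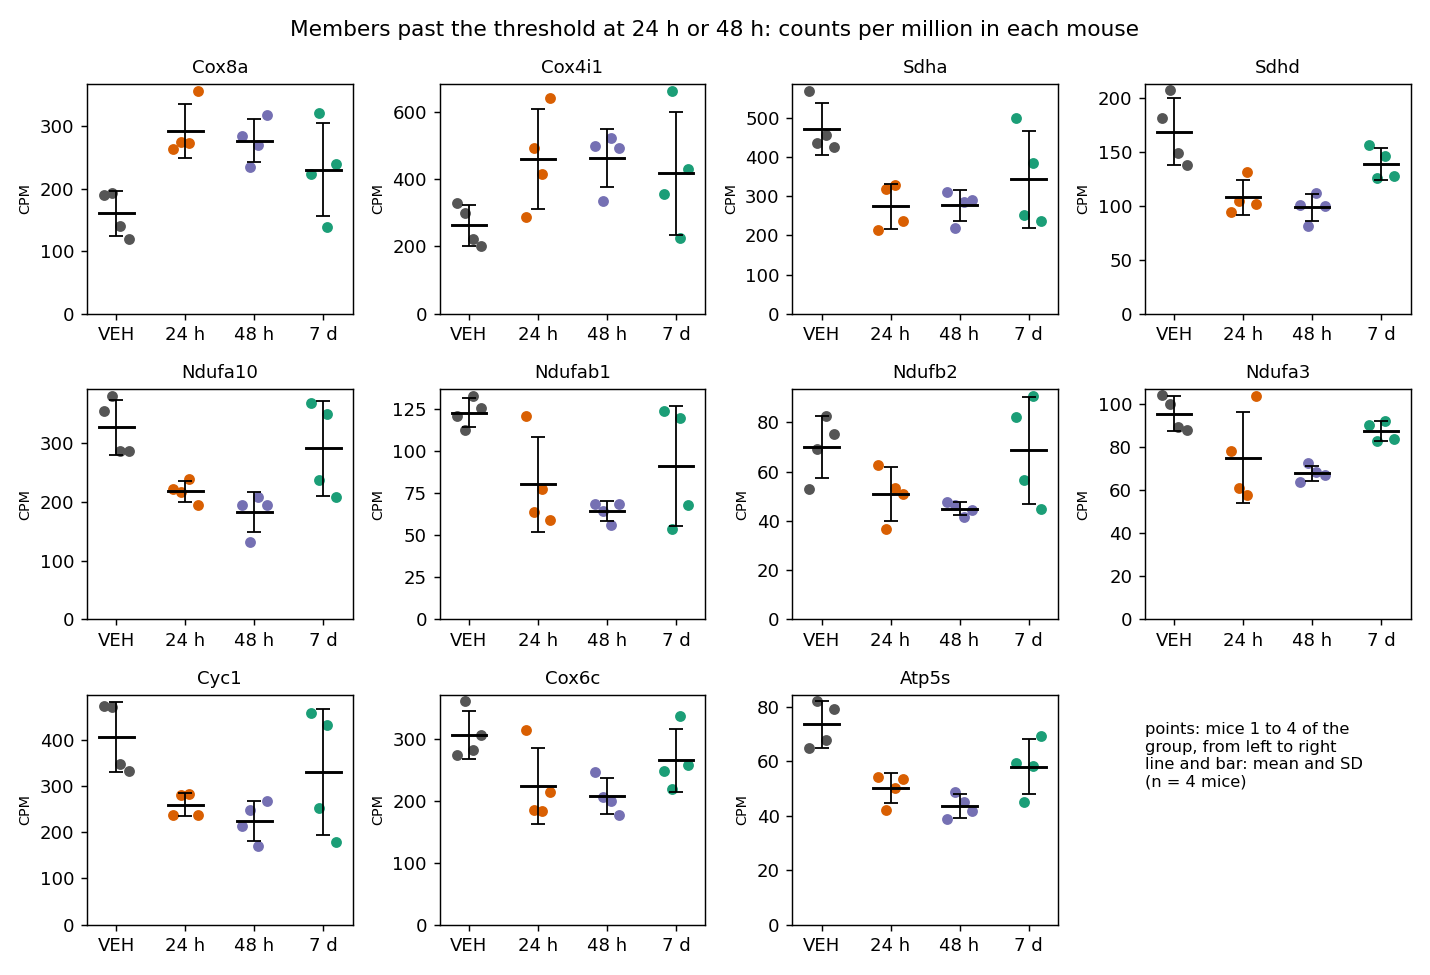
CPM (y axis, from 0) of the 11 members past the threshold at 24 h or 48 h, for mice 1 to 4 of each group from left to right, with mean and SD. Cox8a and Cox4i1 are higher and the other 9 lower at 48 h, and the 7 d mice of Sdha, Ndufab1 and Cyc1 spread from the vehicle level to the 48 h level, while those of Ndufa10 stay above the 48 h mice.

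Complex I, the NADH dehydrogenase with the most members, had medians near 0 (0.06 at 24 h and -0.09 at 48 h, the latter 0.00 with scaling by total counts alone), with 1 of 37 tested members lower at 24 h, 4 lower at 48 h and none higher. Ndufa10 is an accessory subunit of its membrane arm (chr1:92439010-92473860). Its CPM was 354, 380.0, 288 and 286 in VEH, 223, 217, 238 and 195 at 24 h, 195, 132, 208 and 195 at 48 h, and 369, 237, 350.3 and 208 at 7 d. Both early groups lay below all vehicle mice, with log2 fold changes of -0.58 ± 0.20 (edgeR adjusted p = 0.0417) and -0.84 ± 0.20 (adjusted p = 0.00647).

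Ndufab1, the mitochondrial acyl carrier protein that also serves lipoic acid synthesis and iron-sulfur cluster assembly (chr7:122085403-122101886), had 121, 112, 133 and 125 CPM in VEH. At 24 h it had 121, 64.0, 77.2 and 58.8 CPM, and at 48 h 68.5, 64.1, 56.2 and 68.7. Mouse 1 at 24 h stood at the vehicle level and the 48 h mice did not overlap with vehicle. The log2 fold change was -0.62 ± 0.25 (edgeR adjusted p = 0.0803) at 24 h and -0.93 ± 0.25 (adjusted p = 0.0124) at 48 h, where it was the largest fall of any member. Ndufb2 (chr6:39592574-39603382) and Ndufa3 (chr7:3617373-3620327), small accessory subunits of the membrane arm, had log2 fold changes of -0.64 ± 0.22 (adjusted p = 0.0392) and -0.49 ± 0.18 (adjusted p = 0.0408) at 48 h. Their 48 h mice, at 41.7 to 47.5 and 63.7 to 72.3 CPM, lay below all vehicle mice, at 52.9 to 82.5 and 87.7 to 104 CPM.

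Core subunits of complex I, which carry its electron path, did not pass the test. Ndufv1 holds the NADH site and had 413, 371, 269 and 268 CPM in VEH, 103, 240.5, 287 and 209 at 24 h, and 156, 190.2, 195 and 250.1 at 48 h, with log2 fold changes of -0.65 ± 0.30 and -0.74 ± 0.30 (edgeR adjusted p = 0.111 and 0.0659). The groups overlapped at 24 h through mouse 3 and did not overlap at 48 h. Ndufs1, the largest iron-sulfur subunit, had log2 fold changes of -0.27 ± 0.17 and -0.14 ± 0.17 (adjusted p = 0.252 and 0.563). Ndufa9, an accessory subunit near the quinone site, was at -0.55 ± 0.21 and -0.48 ± 0.21 (adjusted p = 0.0635 and 0.0874). Ndufb3 lay above all vehicle mice at both times and Ndufv3 at 48 h, with log2 fold changes of 0.37 (adjusted p = 0.172) and 0.46 (adjusted p = 0.0537) at 48 h.

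In complex III, cytochrome c1 (Cyc1, chr15:76343523-76346260), which hands electrons to cytochrome c, had 472, 470.3, 347 and 333 CPM in VEH. It had 237, 280.1, 282 and 238 CPM at 24 h, 213, 248, 169 and 267 at 48 h, and 458, 251, 432 and 179 at 7 d. Both early groups lay below the vehicle mice without overlap, and 7 d mouse 1 and mouse 3 lay within the vehicle range. The log2 fold change was -0.65 ± 0.25 (edgeR adjusted p = 0.0648) at 24 h and -0.85 ± 0.25 (adjusted p = 0.0172) at 48 h. The other 8 members of the complex did not pass. The Rieske iron-sulfur protein Uqcrfs1 was at -0.03 ± 0.19 and -0.28 ± 0.19, and its sign at 24 h turned to 0.08 with scaling by total counts alone. The core protein Uqcrc1 was at -0.42 ± 0.38 and -0.70 ± 0.38, and the hinge protein Uqcrh at 0.44 ± 0.20 and 0.45 ± 0.20 (adjusted p = 0.112 and 0.0927). Uqcr10, a small subunit, was at 0.27 ± 0.19 and 0.17 ± 0.19.

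Among the ATP synthase genes 1 of 17 tested passed, at both times. Atp5s (Dmac2l in RefSeq, chr12:69724950-69744660) is a factor named for its role in coupling the proton channel to the enzyme and is not a part of the standard subunit set. Its CPM was 64.9, 82.3, 67.9 and 79.4 in VEH, 54.4, 42.3, 50.1 and 53.5 at 24 h, 38.7, 48.7, 45.1 and 41.9 at 48 h, and 59.4, 44.9, 58.4 and 69.4 at 7 d. The early groups did not overlap with vehicle, with log2 fold changes of -0.56 ± 0.17 (edgeR adjusted p = 0.0254) and -0.76 ± 0.17 (adjusted p = 0.00492). The subunits of the catalytic head did not pass: Atp5b was at -0.24 ± 0.23 and -0.34 ± 0.23 (adjusted p = 0.462 and 0.266) and Atp5a1 at -0.35 ± 0.24 and -0.47 ± 0.24 (adjusted p = 0.301 and 0.150). The epsilon subunit Atp5e lay above all vehicle mice at 24 h (0.52 ± 0.19, adjusted p = 0.0591). Atp5h, a subunit of the peripheral stalk, had 133.6 to 152.3 CPM in VEH and 102.8 to 126.1 at 48 h, without overlap, at -0.32 ± 0.16 (adjusted p = 0.121). At 7 d it had 146.5 to 152.6 CPM. Atp5k, a membrane subunit, was at 0.47 ± 0.26 and 0.36 ± 0.26 (adjusted p = 0.186 and 0.294).

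Without regard to the test, 8 members lay above and 5 below all vehicle mice at 24 h (18.5% and 17.2% of all genes did), and 8 above and 15 below at 48 h (19.2% and 19% of all genes). The 8 above are 9.64% of the tested members at each time, the 5 below 6.02% and the 15 below 18.1%.

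Many calls lay close to the threshold, and several were lost when a mouse was left out, in some cases with an estimate as large as before. At 24 h Cox8a passed with each of the 8 mice left out in turn, Sdhd with 7 of 8 (not without vehicle mouse 2, edgeR adjusted p = 0.053), and Sdha with 5 of 8 (not without vehicle mouse 1, 24 h mouse 1 or 24 h mouse 4, adjusted p = 0.0595 to 0.0662). Atp5s passed with 5 of 8 (not without vehicle mouse 2 or mouse 4 or 24 h mouse 2, adjusted p = 0.0637 to 0.0716). Cox4i1 at 24 h passed in 1 of 8 such fits, without 24 h mouse 1 (adjusted p = 0.0297; 0.0581 to 0.176 in the others, with log2 fold changes of 0.59 to 0.93), and Ndufa10 in 0 of 8 (0.0507 to 0.115, with log2 fold changes of -0.64 to -0.52). At 48 h Sdhd, Ndufa10, Ndufab1 and Atp5s passed in 8 of 8, Cox8a in 7 of 8 (not without vehicle mouse 4, 0.0518), Sdha in 6 (not without vehicle mouse 1 or 48 h mouse 2, 0.061 and 0.0602) and Cyc1 in 5 (not without vehicle mouse 1 or mouse 2 or 48 h mouse 3, 0.0521 to 0.058). Cox4i1 passed at 48 h in 2 of 8 (without vehicle mouse 1 or 48 h mouse 2), Cox6c in 1 (without 48 h mouse 1), Ndufb2 in 1 (without vehicle mouse 1) and Ndufa3 in 0, with adjusted p up to 0.111, 0.107, 0.105 and 0.102. Over the 8 fits the log2 fold changes ran from 0.71 to 0.95 for Cox4i1, from -0.67 to -0.49 for Cox6c, from -0.75 to -0.54 for Ndufb2 and from -0.53 to -0.44 for Ndufa3. All 11 kept their direction in these fits. Other settings also ended calls. Scaling by total counts alone and fitting protein-coding genes alone ended Atp5s (adjusted p = 0.0596 and 0.0698) and Ndufa10 (0.0703 and 0.0658) at 24 h, and Cox6c (0.073 and 0.0802), Ndufb2 (0.0652 and 0.062) and Ndufa3 (0.094 and 0.1) at 48 h. Leaving out the filter on low counts ended Atp5s at 24 h (-0.60, adjusted p = 0.0725) and Ndufa3 at 48 h (-0.56, adjusted p = 0.0829), with estimates larger than before. Library 1 alone ended Cox6c (0.0593) and Ndufa3 (0.0715) at 48 h, and library 2 alone ended Ndufa10 at 24 h (0.0647) and Ndufb2 (0.0536) and Ndufa3 (0.0601) at 48 h. Without the 3 mice whose headers carry the number 6, an alternative chosen after seeing the data, Ndufb2 (0.0598) and Ndufa3 (0.0613) did not pass at 48 h, and Ndufab1 (0.0105) and Cox6c (0.021) passed at 24 h. Calls were also gained: without 24 h mouse 1, Ndufab1 (-0.88, adjusted p = 0.0218) and Cox6c (-0.66, 0.0209) passed at 24 h. Cox7a2l without vehicle mouse 1 (0.80, 0.0461), Ndufa9 without 24 h mouse 3 (-0.69, 0.0391) and Ndufa3 without 24 h mouse 4 (-0.55, 0.0366) passed at 24 h, and Ndufb8 without vehicle mouse 4 (-0.61, 0.0397) at 48 h.

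At 7 d against VEH 0 members passed with edgeR (0 with DESeq2 and 0 with limma voom), as did 0% of all genes. At an unadjusted p below 0.05 there were 3 members (3.61%, against 16.8% of all genes), which were Cox8a (0.52 ± 0.22), Cox4i1 (0.67 ± 0.29) and Cox6b1 (0.60 ± 0.26), with adjusted p = 0.246, 0.248 and 0.245. No member separated the 7 d from the vehicle mice, against 5.85% of all genes. Without 7 d mouse 3, Cox6b1 (0.84, adjusted p = 0.024) and Cox8a (0.71, adjusted p = 0.0436) passed. Cox6b1 had 181, 258, 93.4 and 264 CPM at 7 d, so mouse 3 lay below the vehicle mice and the other 3 above. For Ndufa10, Cyc1 and Ndufab1, 7 d mouse 1 and mouse 3 lay within the vehicle range and mouse 2 and mouse 4 below it. Those 4 mice also differed in the 18S share given above, and its part was not tested.

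Between the DOI groups, 48 h against 24 h gave 0 members (0% of all genes) and 0 at an unadjusted p below 0.05 (1.88% of all genes), with 0 by DESeq2 and by limma voom. Of the 83 members 68 had a lower estimate at 48 h, with a median of -0.11 (0.00 over all genes), and without 24 h mouse 4 the median was 0.01. That mouse had the largest summed level of all members at 24 h, 12814 CPM against 9921 to 11072 in the other 3. At 7 d against 24 h 0 members passed (0.00557% of all genes; 0 by DESeq2 and by limma voom), and 2 had an unadjusted p below 0.05 (14.2% of all genes). At 7 d against 48 h 0 passed with edgeR (0% of all genes) and 0 with limma voom, and 1, Ndufa10, with DESeq2 (0.67, adjusted p = 0.0423). At an unadjusted p below 0.05 there were 6 members (16.5% of all genes), all higher at 7 d: Ndufa10, Sdhd, Ndufb2, Atp5h, Atp5s and Cyc1. Ndufa10 also passed there with edgeR without 7 d mouse 4 (0.80, adjusted p = 0.0448). A joint test of all 3 DOI groups and VEH called 5 members (6.02%, against 18.8% of all genes): Sdhd, Atp5s, Ndufa10, Cox8a and Sdha, with adjusted p of 0.0134, 0.0201, 0.0209, 0.0367 and 0.0419.

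The members are compact genes, and their fold changes followed exonic length. Their median exonic length was 1756 bases, against 4648 for protein-coding genes tested. Across the 83 members Spearman's rho of fold change and exonic length was -0.33 at 24 h, -0.35 at 48 h and -0.43 at 7 d, so the shorter members tended to be the higher ones. Across all 13395 protein-coding genes it was 0.12, 0.19 and 0.13, the opposite sign. These are descriptions across genes, which share libraries and depth and are not independent replicates, and the 3 comparisons share the vehicle mice. Among 3262 protein-coding genes no longer than the members' upper quartile of 2919 bases, 6.41% were called higher and 8.09% lower at 24 h, and 7.2% and 14.1% at 48 h. The called shares of the members (2.41% and 4.82%, then 2.41% and 10.8%) lay below these shares as well.

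**Figure D5:**
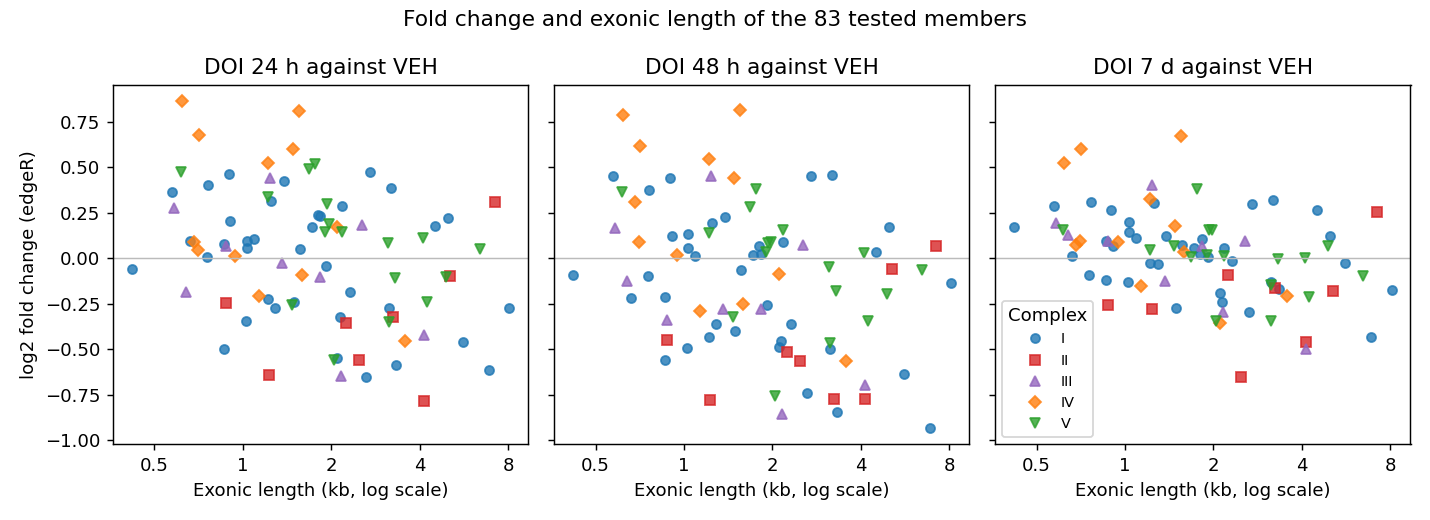
log2 fold change against vehicle (y axis) and exonic length in kilobases (x axis, log scale) of the 83 tested members at 24 h, 48 h and 7 d, coloured by complex. Points slope downwards from short to long genes at each time (rho -0.33, -0.35 and -0.43), with complex IV members among the short, higher genes.

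Genes that work with the subunits were read from lists of the pathway, beside a background over all genes tested of 13.8% higher and 10.4% lower at 24 h and 16.8% higher and 13.3% lower at 48 h. Of 15 tested complex I assembly factors 0 rose and 5 fell at 24 h, and 0 rose and 4 fell at 48 h. Foxred1, a flavoprotein needed to build the complex, fell by 1.22 ± 0.27 and fell by 1.24 ± 0.27 on the log2 scale (edgeR adjusted p = 0.00596 and 0.00448), and Tmem126b fell by 0.76 ± 0.18 and fell by 0.93 ± 0.18. Ndufaf1 and Tmem186 also fell at both times and Ndufaf7 at 24 h. The summed level of the list was 1076 to 1209 CPM in VEH, 749 to 854 at 24 h and 698 to 870.1 at 48 h, without overlap. Of 6 factors for complex III, 1 fell at each time: Ttc19, which fell by 1.11 ± 0.23 and fell by 0.95 ± 0.23. Of 17 for complex IV, 1 rose (Cox16) and 3 fell (Cox15, Cox17, Sco1) at each time, and of 4 for ATP synthase 1 fell at each time (Atpaf2). Exons of Cox16, Cox15, Cox17, Ttc19 and Tmem186 overlap other genes, Cox16 and Cox17 on the same strand.

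The citrate cycle, in which complex II is also an enzyme, had 0 of 12 tested genes higher and 4 lower at 24 h, and 0 higher and 5 lower at 48 h (10.4% and 13.3% of all genes were lower). Sucla2, a subunit of succinyl-CoA synthetase, which makes the substrate of complex II, fell by 1.03 ± 0.20 and fell by 1.09 ± 0.20 on the log2 scale (edgeR adjusted p = 0.00329 and 0.00188). Idh3a, Idh3g and Dld fell at both times and Mdh2 at 48 h. Cytochrome c (Cycs), the carrier between complexes III and IV, fell at 48 h by 0.96 ± 0.20 (adjusted p = 0.00306) and was at -0.46 ± 0.20 (adjusted p = 0.0926) at 24 h. Of 10 regulators, Ppargc1b rose at both times (1.05 ± 0.33 and 1.08 ± 0.33), Yy1 rose at 48 h, and Esrra and Tfam fell at 48 h. Nrf1 and Gabpa did not pass. No gene of these lists passed at 7 d.

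Transcripts of the mitochondrial genome, which supplies the partners of these subunits, were scarce in nuclei. Their share of counts was 0.0171 to 0.0701% in VEH, 0.0621 to 0.101% (24 h), 0.108 to 0.268% (48 h) and 0.021 to 0.13% (7 d), so the 48 h mice lay above vehicle without overlap. The share of the nuclear RNA Malat1 was 2.29 to 3.11% in VEH, 2.91 to 6.18% (24 h), 2.82 to 7.40% (48 h) and 1.67 to 4.24% (7 d), and the part of both shares in the results was not tested. Of the 13 protein genes of the mitochondrial genome 7 were tested. At 24 h 0 passed, and at 48 h 4 rose (mt-Nd1, mt-Nd2, mt-Nd5 and mt-Co1) and 0 fell. Over all genes tested 16.8% rose and 13.3% fell at 48 h. The nuclear-encoded members made up 0.903 to 1.34% of counts over the mice, and the ranges of the groups overlapped. Within groups the median coefficient of variation of the members was 14.5% in VEH, 22.3% at 24 h, 13.7% at 48 h and 21.5% at 7 d.

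Exons of 32 of the 83 tested members overlap another gene, by up to 69.6% of their length (Sdhaf1). Since the counting did not use strand, a read in an overlap with a gene on the other strand fits both genes. The Atp5o readthrough ID, whose exons all overlap other genes, had 0 counts in every mouse, so reads in its overlaps were not counted for it. Whether overlaps changed the levels of other members was not tested. Of the 11 called members, Cox8a, Sdha, Sdhd, Ndufa10, Cyc1 and Atp5s have no such overlap. Cox4i1, Cox6c, Ndufab1, Ndufb2 and Ndufa3 overlap another gene by 0.39 to 9.94% of their exonic length.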

How the data were processed

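RNA-seq (SMART-seq2 with Nextera XT) was analysed from 32 libraries of 16 mice. Per the file headers, the deposited counts are reads per gene made by the authors with featureCounts 2.0.0 and an Ensembl GRCm38 annotation, without strand. The aligner is not given in the sources used here. The 2 libraries of a mouse were summed, and 2763704 to 7436451 counts per library were available. Symbols were matched for 55141 of 55401 IDs (99.5%) and CPM was scaled by TMM. All genes passing filterByExpr were tested in R 4.3.3 with edgeR 4.0.16 (quasi-likelihood test, one model of the 4 groups, Benjamini-Hochberg threshold 0.05), tested first on simulated data. Alternatives were DESeq2 1.42.0, limma 3.58.1 (voom), other scalings, filters and thresholds, and each mouse left out. Members, lists, markers and rules were chosen with earlier results of these data known. Named members were the 3 with the smallest p per complex at 24 h and 48 h, the 5 smallest at 7 d and for any difference, the 3 highest per kb, isoforms and catalytic subunits. Other names were chosen after their values were seen. Promoter sequences are from RefSeq (GRCm38.p6). A gene of the citrate cycle list is not reported here and was left out of its counts.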

Additional observations from a re-analysis of the deposited data

Results flagged for a closer look

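A single mouse stood apart from the other 3 of its group (Dixon's 95% criterion) in 4 of 128 groups of mice examined over 32 measures, where chance alone gives about 6.4 (1 in 20 groups). Cox8a had 356 CPM in 24 h mouse 4, with the next mouse at 275. Cox6b1 had 288 CPM in the same mouse, with the next at 189. Cox4i1 had 335 CPM in 48 h mouse 2, the lowest of its group, with the next at 492. Ndufa9, a complex I subunit, had 158 CPM in 7 d mouse 1, with the next at 127.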

How the results depend on the processing

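Counts of called members depended on the tool and on single mice. Shares of all genes are not given for the other thresholds or for the fits with a mouse left out. They are also not given for the alternatives of the joint test and of the 7 d comparisons. Those counts are therefore no comparison with the background. At 24 h (6 called) DESeq2 called 10, limma voom 22 and a model of the compared groups alone 12, with 0 and 14 at adjusted p thresholds of 0.01 and 0.1 and 2 to 6 with a mouse left out. At 48 h (11 called) limma voom called 25, the compared groups alone 25, thresholds of 0.01 and 0.1 gave 3 and 20, and leaving out a mouse 6 to 8. With the mouse number as a replicate block 7 were called at 48 h, without Cox4i1, Cox6c, Ndufb2 and Ndufa3 (adjusted p = 0.0505, 0.0517, 0.051 and 0.0633), and 6 at 24 h, without Cox4i1 (0.79, adjusted p = 0.0746) and with Ndufab1 (-0.67, 0.0493). At 48 h this block called 1.2% of members higher and 7.2% lower, against 14.7% and 11.3% of all genes. At 24 h the shares were 1.2% and 6% of members, against 11.7% and 8.7% of all genes. Mice with the same number in the labels did not deviate together (mean r -0.04, from -0.28 to 0.24 over 24 pairs). This cannot settle whether the numbers pair the mice, since a low correlation does not exclude pairing and some mice carry another number in their file headers. For any difference (5 called) limma voom called 15, no filter 9, and the thresholds of 0.01 and 0.1 gave 0 and 8, with 0 to 8 with a mouse left out. At 7 d leaving out a mouse gave 0 to 2, and at 7 d against 48 h 0 to 1, with 1 by DESeq2. The complex II sum without assembly factors was 568.5 CPM at 24 h and 541.0 at 48 h. The looser NRF1 form gave 37.0% of members and 12.4% of protein-coding genes. Of the members the naming rule covers, the signs of 3 that were not called turned. Over all members tested, and leaving aside the fits without 1 mouse, between 0 and 10 turned sign per alternative at 24 h and between 0 and 8 at 48 h, and none of these was called with either setting. Cox6a1 was at 0.04 at 24 h and at -0.0038 with no filter, from -0.12 to 0.11 with a mouse left out, and from -0.0053 to 0.16 at 48 h. Uqcrfs1 at 24 h was at 0.0805 with total counts only, 0.0123 with library 1 only and 0.0783 with protein-coding genes only, and from -0.12 to 0.0805 with a mouse left out. Sdhaf2 at 48 h ranged from -0.03 to 0.14. The cause was not tested. The median of all members also changed sign with a mouse left out, from -0.12 to 0.12 at 24 h and from -0.16 to 0.01 at 48 h, where it went from -0.07 to 0.02 with total counts only and 0.03 with protein-coding genes only. With 4 mice per group, differences of most members are within the spread between mice.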
